A study of Homo sapiens with 2 samples.

Results

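The genes described here are 32 enzymes of glycolysis and of the pathways that branch from it. They were taken as every probe set whose platform gene symbol is one of 32 names, a rule that uses no measured values, although the names were chosen with earlier results of these data known. Of the 32 genes, 27 belong to glycolysis with its pyruvate and glycogen branches and 5 to the pentose phosphate branch. Together they have 54 of the 22215 non-control probe sets on the array and are 32 of 11963 genes that have a probe set carrying 1 symbol. Transcript levels were compared in the Hodgkin lymphoma cell line L-540, in cells treated with vorinostat, a hydroxamate inhibitor of histone deacetylases, and in cells left untreated. Each group held 1 Affymetrix HG_U133A array, so no difference below has a replicate check and no p-value or error between cultures can be given. Dose and duration of the treatment are not stated in the labels, and L-540 is a single line, so the values describe this line alone.

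Glycolysis splits glucose into pyruvate and yields ATP and NADH. Its flux is set mainly at hexokinase, phosphofructokinase and pyruvate kinase, and the bifunctional PFKFB enzymes make and remove the sugar bisphosphate that activates phosphofructokinase. Pyruvate is either reduced to lactate or passed into mitochondria by pyruvate dehydrogenase, which the PDK kinases switch off. The pentose phosphate pathway leaves glycolysis at glucose phosphate and supplies NADPH and ribose, and proliferating lymphoid cells are known for running both routes at high rates.

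The values are MAS5 signals, a linear intensity per probe set. Signals under a floor of 68.9 units, the 40th percentile of both arrays pooled, were raised to the floor, and a gene is called measured if a probe set lies above it on at least 1 array. The median signal was 115 on the vorinostat array and 126 on the untreated array, and 58.8% of probe sets lay above the floor with vorinostat and 61.2% untreated. The log2 ratios of 18 spike-in probe sets averaged 0.06 ± 0.17 (SD over probe sets). For the ACTB control, the 3' signal was 1.24 times the 5' signal on the vorinostat array and 1.06 times on the untreated array. All 9 Hodgkin cell markers looked up were measured, with summed signals of 26967 units with vorinostat and 41015 units untreated. The CD30 gene TNFRSF8, their defining marker, had 3228 units with vorinostat and 10777 units untreated. The 9 did not all go this way. IRF4, with 14699 units with vorinostat and 12032 units untreated, and GATA3 (log2 ratio 0.42) were higher, and the others were lower. Of the T cell markers 3 of 6 were measured (CD2, CD3E and CD247), while CD3D, CD3G and CD7 were not. The signals summed to 1276 units with vorinostat and 4963 units untreated over the 6. Most of both sums came from CD247, with 942 units with vorinostat and 4463 units untreated. CD2 had 220 units with vorinostat and 319 units untreated. CD3E had 139 units untreated and was under the floor with vorinostat. Of the named B cell markers 1 of 4 was measured (212 units with vorinostat and 297 units untreated over the 4), and MS4A1 and CD79A were not. The summed signals of the monocyte (2 of 6 measured), fibroblast (3 of 5), epithelial (2 of 5) and erythroid (1 of 1) markers lay between 146 and 473 units on either array. The part of these differences in the results below was not tested.

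Of the 32 genes 31 were measured, among 8277 measured genes in all. Only the phosphofructokinase gene PFKP lay under the floor on both arrays, at 29.9 units with vorinostat and 9.47 units untreated. PFKFB3 was the single member at least 2-fold higher with vorinostat, and PFKFB4 and the glycogen branching enzyme gene GBE1 were at least 2-fold lower. The remaining 28 lay within 2-fold. These 3 genes are 9.68% of the measured members, near the 8.89% of all measured genes that were at least 2-fold apart (3.77% higher and 5.12% lower). At 1.5-fold the count was 4 higher and 5 lower of 31, or 29.0%, near the 28.2% of all measured genes (12.7% higher and 15.5% lower). With PFKFB3 the 4 higher genes were PDK2, PFKM and PGD, and with PFKFB4 and GBE1 the 5 lower genes were PDK1, PGM1 and ENO2. The median log2 ratio was -0.07 over the members, against -0.04 over all measured genes. The shares and the median of the members lay near those of the whole array, and single isozymes differed in direction. The split depended on how the arrays were scaled: with equal medians PFKM and PDK2 joined PFKFB3, which made 3 members higher and 2 lower, and after quantile normalization or loess PDK2 alone joined it. Over the whole array, equal medians put 459 genes past 2-fold on the higher and 321 on the lower side, against 312 higher and 424 lower with the deposited scaling. In RNA from whole cultures, fewer cells of a kind and less RNA per cell cannot be told apart.

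**Figure D1:**
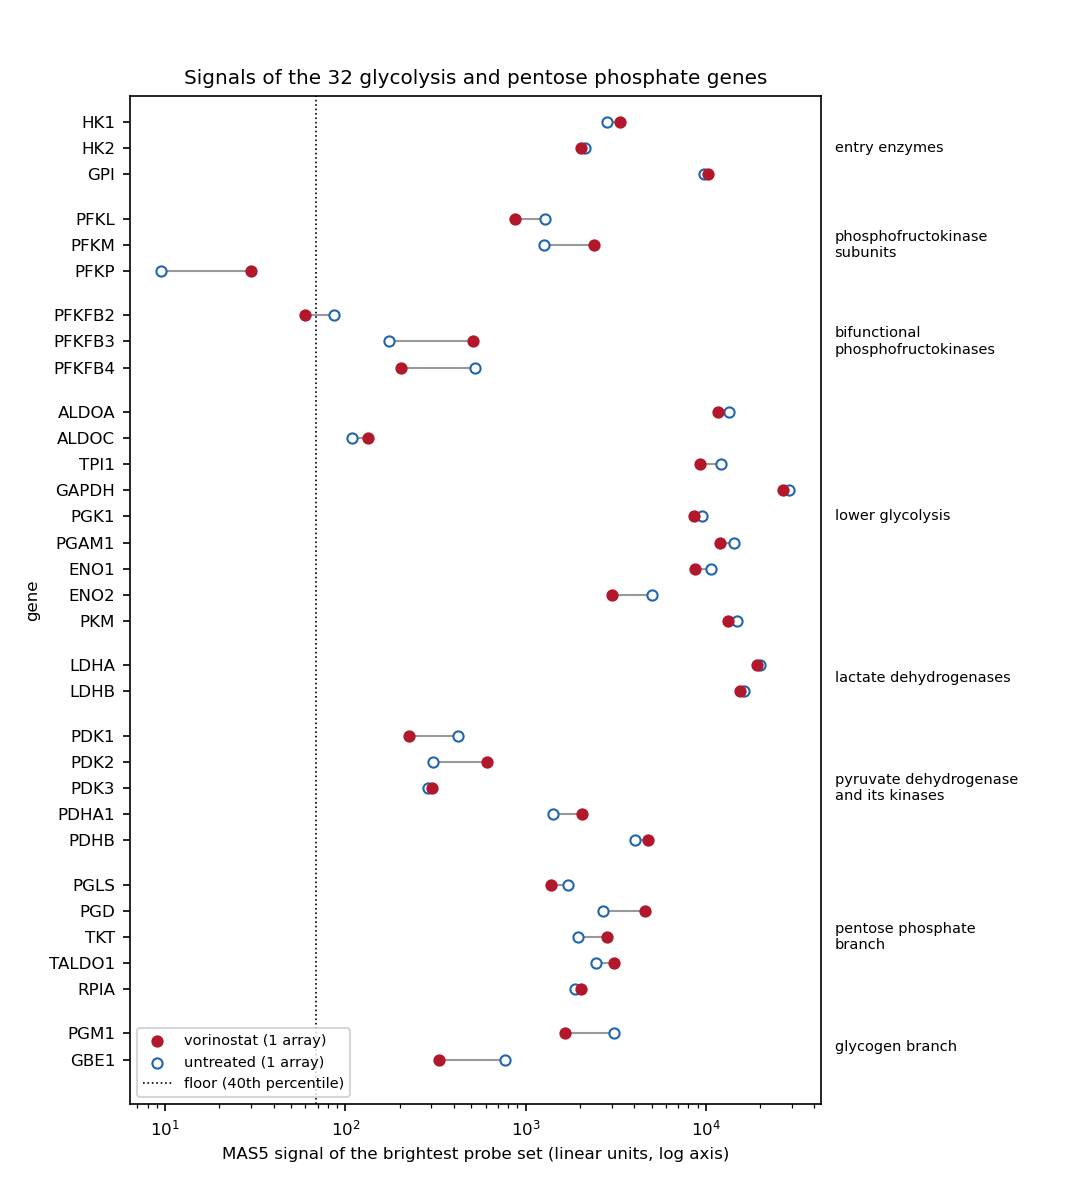
MAS5 signal (log axis) of the brightest probe set of each of the 32 genes, by role, with vorinostat as filled red points and untreated as open blue points, 1 array each; the dotted line is the floor. The pairs of points stand farthest apart for PFKFB3, PFKFB4 and GBE1 among measured genes, and nearly coincide for GPI, LDHA and LDHB.

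Beside the scatter of the spike-ins, the error at hand within this pair of arrays is how far probe sets of 1 gene disagree. Over 5372 pairs of probe sets above the floor on both arrays, the median absolute difference of their log2 ratios was 0.26, and 90% of the pairs differed by less than 0.71. The 26 such pairs among the members had a median difference of 0.10. Of 15 members with several such probe sets, all of them went the same way in 12, against 1757 of 2428 among all genes. The exceptions were HK2, LDHB and PDK3, whose ratios lay close to 0. This disagreement covers probe behaviour and not the spread between cultures, which 1 array per group cannot show.

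The entry enzymes were close to level. HK1, the ubiquitous hexokinase that traps glucose in the cell, had 3336 units with vorinostat and 2843 units untreated (a log2 ratio of 0.23). HK2, the inducible hexokinase of many tumours, had 2041 units with vorinostat and 2136 units untreated (-0.07), and its second, dim probe set had a log2 ratio of 0.08. GPI, which isomerises glucose phosphate to fructose phosphate, had 10312 units with vorinostat and 9740 units untreated (0.08). None of the 3 reached the median disagreement between probe sets of a gene.

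The subunits of phosphofructokinase, which commits sugar to glycolysis, went in opposite directions. PFKM, the subunit named for muscle, had 2387 units with vorinostat and 1264 units untreated on its single probe set, a 1.89-fold higher signal (log2 ratio 0.92, or 1.05 with equal medians). PFKL, the subunit named for liver, had 873 units with vorinostat and 1273 units untreated on its brightest probe set (1.46-fold lower) and 684 units with vorinostat and 1316 units untreated on the other (1.92-fold lower). The log2 ratios of PFKM and PFKL were 1.46 apart. All 3 probe sets have a suffix that marks sequence shared between transcripts or genes.

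The bifunctional enzymes held both the highest and the lowest ratio among the members. PFKFB3, the isozyme with the strongest kinase activity relative to its phosphatase, had 511 units with vorinostat and 174 units untreated. This is a 2.93-fold higher signal (log2 ratio 1.55), from a single probe set with a shared-sequence suffix. PFKFB4, a further isozyme known to respond to hypoxia, had 203 units with vorinostat and 526 units untreated, a 2.58-fold lower signal (log2 ratio -1.37) on its single probe set. The log2 ratios of the pair were 2.92 apart. PFKFB2, the isozyme best known from heart, was under the floor with vorinostat (59.8 units) and just above it untreated (86.6 units), so it was at least 1.26-fold lower, and its second probe set was under the floor on both arrays.

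The start regions of the members beyond 2-fold are shown because these genes differed most between the arrays. Each window runs from 250 bases before to 50 bases after an annotated start, 5' to 3' on the gene's strand, from RefSeq on GRCh38.p14. Capitals mark the core letters of the hypoxia response element, ACGTG or GCGTG, on either strand, the first of which also lies inside the E-box CACGTG.
PFKFB3, upstream start, chr10:6144671-6144970, plus strand: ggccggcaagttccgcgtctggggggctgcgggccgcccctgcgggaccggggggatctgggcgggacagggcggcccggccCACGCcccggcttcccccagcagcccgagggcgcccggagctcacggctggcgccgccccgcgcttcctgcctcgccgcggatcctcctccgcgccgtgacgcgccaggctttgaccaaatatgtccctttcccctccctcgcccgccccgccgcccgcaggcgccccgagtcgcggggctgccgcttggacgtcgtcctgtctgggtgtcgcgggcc
PFKFB3, downstream start, chr10:6202682-6202981, plus strand: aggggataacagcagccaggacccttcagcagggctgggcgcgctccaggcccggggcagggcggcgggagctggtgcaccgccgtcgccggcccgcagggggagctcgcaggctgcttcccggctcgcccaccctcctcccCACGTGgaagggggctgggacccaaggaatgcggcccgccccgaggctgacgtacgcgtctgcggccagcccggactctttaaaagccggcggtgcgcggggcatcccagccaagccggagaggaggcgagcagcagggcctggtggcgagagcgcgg
PFKFB4, chr3:48556754-48557053, minus strand: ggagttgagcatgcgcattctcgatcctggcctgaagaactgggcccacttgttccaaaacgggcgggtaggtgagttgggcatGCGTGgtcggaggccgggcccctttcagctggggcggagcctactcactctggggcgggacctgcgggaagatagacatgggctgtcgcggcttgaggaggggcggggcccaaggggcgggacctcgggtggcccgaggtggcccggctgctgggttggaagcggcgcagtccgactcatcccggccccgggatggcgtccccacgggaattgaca
GBE1, chr3:81761596-81761895, minus strand: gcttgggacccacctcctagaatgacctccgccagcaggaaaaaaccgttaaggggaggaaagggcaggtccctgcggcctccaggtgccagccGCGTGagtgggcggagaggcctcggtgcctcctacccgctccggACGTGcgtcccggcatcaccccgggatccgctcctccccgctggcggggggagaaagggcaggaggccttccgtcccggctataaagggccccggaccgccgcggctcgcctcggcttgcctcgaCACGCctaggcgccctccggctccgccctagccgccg
The downstream start of PFKFB3 holds a full E-box, read as a core match on both strands, and its upstream start holds 1 match to GCGTG. PFKFB4 holds 1 match to GCGTG, and GBE1 holds 1 match to ACGTG and 2 to GCGTG. The letters thus occur at the gene with the higher signal and at the genes with lower ones. Windows were found for 31 of the 32 genes, 57 windows in all, some of them overlapping. ACGTG was in 23 of the 57 (40.4%) and in 21.4% of 35116 windows of all genes, and GCGTG was in 42.1% of member windows and 36.5% of all windows. The E-box CACGTG was in 14.0% and 7.26%, and the GC box GGGCGG in 71.9% and 45.0%. The member windows had a median GC content of 68.7%, against 58.7% over all windows. The part of base composition in these shares was not tested, and a match of letters is no evidence that a factor binds there.

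In lower glycolysis, from aldolase to pyruvate kinase, 8 of 9 genes had a lower signal with vorinostat and none was 2-fold apart. The median log2 ratio was -0.20, and 53.0% of all measured genes had a ratio below 0. Of the 20 probe sets of these genes 19 had a ratio below 0, against 53.9% of all measured probe sets. Probe sets of the same gene read the same RNA, so this count is not independent of the count of genes. The differences were small for most: ALDOA, the aldolase of most tissues, had 11720 units with vorinostat and 13489 units untreated (log2 ratio -0.20). TPI1, which interconverts the triose phosphates, had 9330 units with vorinostat and 12081 units untreated (-0.37). These 2 ratios lay on either side of the median disagreement of 0.26.

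PGK1, the first ATP-yielding enzyme of the pathway, had 8637 units with vorinostat and 9541 units untreated (-0.14), and its 4 probe sets gave log2 ratios between -0.23 and -0.12. PGAM1, which moves the phosphate of phosphoglycerate, had 11965 units with vorinostat and 14391 units untreated (-0.27). PKM, a pyruvate kinase gene, had 13283 units with vorinostat and 14980 units untreated (-0.17) on its brightest probe set and a log2 ratio of -0.51 on its dimmer one. The ratios of the brightest probe sets of these 3 genes lay near or below the median disagreement of 0.26, and that of the dimmer PKM probe set lay above it.

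The enolases differed more. ENO1, the enolase of most tissues, had 8717 units with vorinostat and 10735 units untreated (-0.30), and its other probe sets gave -0.50 and -0.55. ENO2, the enolase best known from neurons, had 3006 units with vorinostat and 4999 units untreated, a 1.66-fold lower signal (-0.73) on a single probe set without a shared-sequence suffix. ENO2 was the 1 gene of lower glycolysis past 1.5-fold. ALDOC, the aldolase best known from brain, was the 1 gene with a higher signal, at 134 units with vorinostat and 109 units untreated (0.30), close above the floor.

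GAPDH, the dehydrogenase often used to scale other genes, can be followed on more probe sets than any other member. Its 3 probe sets had 26985, 26829 and 25193 units with vorinostat and 29101, 29205 and 28942 units untreated, or log2 ratios of -0.11, -0.12 and -0.20. The 3 GAPDH control probe sets, which the platform places along the transcript, gave log2 ratios of -0.02 at the 5' end, -0.19 in the middle and -0.03 at the 3' end. The ACTB control probe sets gave -0.32, -0.24 and -0.10 in the same order. With the arrays scaled to equal medians, a setting in which the median log2 ratio of all measured genes was 0.08 in place of -0.04, the ratio of GAPDH was 0.02, and 7 of the 9 genes of lower glycolysis remained below 0, with a median of -0.07. After loess on signal level 8 of 9 were below 0, with a median of -0.16. The GAPDH, ALDOA and LDHB probe sets, and the brightest ones of TPI1, PGK1, ENO1 and PGAM1, have shared-sequence suffixes, so related sequences such as processed pseudogenes could add to their signals. Such suffixes are also carried by the probe sets of LDHA, GPI, PDK2, PGM1, TKT and TALDO1, and by the brightest ones of PDHA1 and PGLS.

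**Figure D2:**
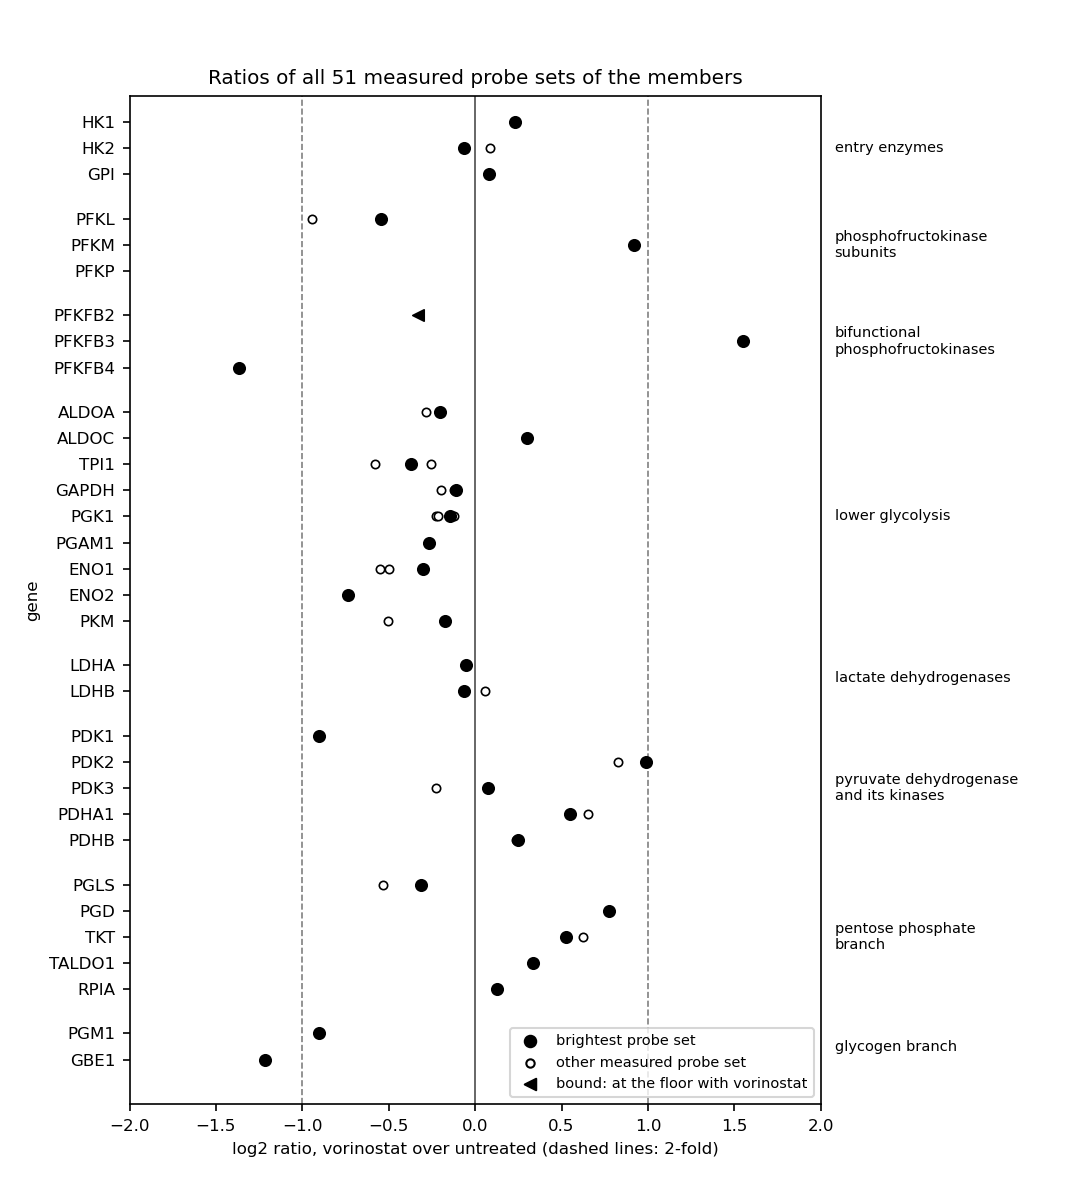
Log2 ratio of vorinostat over untreated for each of the 51 measured probe sets, by gene and role; filled points are a gene's brightest probe set, open points its others, and the triangle is a bound at the floor. Of the 20 probe sets of lower glycolysis 19 lie left of 0, and the isozymes of PFK, PFKFB and PDK lie on opposite sides.

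The lactate dehydrogenases, which pass electrons between pyruvate and lactate, were level. LDHA, the form that favours lactate production, had 19142 units with vorinostat and 19890 units untreated (log2 ratio -0.06). LDHB, the form that favours pyruvate, had 15558 units with vorinostat and 16265 units untreated (-0.06), and its second probe set had 0.06. The sign for this pair depends on scaling: with equal medians LDHA had 0.07 and LDHB 0.07, and after quantile normalization LDHB had 0.05. The log2 ratios of the pair differed by 0.01.

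At the step into mitochondria, the members PDHA1 and PDHB, subunit genes of pyruvate dehydrogenase, had higher signals with vorinostat, and the kinases that inhibit the complex split. Of the other measured genes of the complex, PDHX and the testis form PDHA2 had lower signals, and DLAT (log2 ratio 0.44) and DLD (0.27) higher ones. PDHA2 was under the floor with vorinostat, so its ratio is a bound. PDHA1, the catalytic alpha subunit, had 2062 units with vorinostat and 1410 units untreated (1.46-fold higher, log2 ratio 0.55), and 0.65 on its second probe set. PDHB, the beta subunit, had 4788 units with vorinostat and 4039 units untreated (0.25), and 0.24 on its second. Both stayed within 2-fold.

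Among the kinases, PDK2 had 611 units with vorinostat and 307 units untreated, a 1.99-fold higher signal (log2 ratio 0.99), and 517 units with vorinostat and 292 units untreated on its second probe set (1.77-fold higher). PDK1, known as a hypoxia-induced kinase, had 226 units with vorinostat and 423 units untreated, a 1.87-fold lower signal (-0.90) on its single probe set. The log2 ratios of PDK2 and PDK1 were 1.89 apart. PDK3 had 301 units with vorinostat and 286 units untreated (0.07), and a dim second probe set with -0.23. PDK2 passed 2-fold under 3 other scalings, at log2 ratios of 1.12 with equal medians, 1.03 after quantile normalization and 1.01 after loess.

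In the glycogen branch both genes had lower signals with vorinostat. GBE1, which puts branches into glycogen, had 332 units with vorinostat and 773 units untreated, a 2.33-fold lower signal (log2 ratio -1.22) on its single probe set. PGM1, which interconverts the glucose phosphates that link glycogen to glycolysis, had 1657 units with vorinostat and 3096 units untreated, a 1.87-fold lower signal (-0.90) on its single probe set. GYS1, which builds the glycogen chain and is no member, went the other way, with 1730 units with vorinostat and 985 units untreated (1.76-fold higher).

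The pentose phosphate branch was described apart from glycolysis. All 5 of its genes were measured, 4 had higher signals with vorinostat and 1 a lower one, and none was 2-fold apart. The median log2 ratio was 0.33, against -0.13 for the 26 measured genes of glycolysis and -0.04 for all measured genes, of which 47.0% had a ratio above 0. No test of the difference between the branches can be made with 1 array per group.

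In the oxidative arm, PGD, the phosphogluconate dehydrogenase that makes NADPH, had 4615 units with vorinostat and 2702 units untreated, a 1.71-fold higher signal (log2 ratio 0.77) on its single probe set. PGLS, the lactonase one step before it, had 1383 units with vorinostat and 1720 units untreated (1.24-fold lower, -0.31), and 1119 units with vorinostat and 1617 units untreated on its second probe set (1.45-fold lower). PGLS and PGD, consecutive enzymes, thus lay on opposite sides of 0 on every probe set.

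In the non-oxidative arm the signals were higher by smaller amounts. TKT, the transketolase that returns pentoses to glycolysis, had 2818 units with vorinostat and 1961 units untreated (1.44-fold higher, 0.52), and 1.54-fold higher on its second probe set. TALDO1, the transaldolase, had 3108 units with vorinostat and 2469 units untreated (0.33). RPIA, which makes ribose phosphate, had 2037 units with vorinostat and 1869 units untreated (0.12), less than the median disagreement between probe sets. The directions of all 5 genes were the same in each alternative scaling and floor tried.

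**Figure D3:**
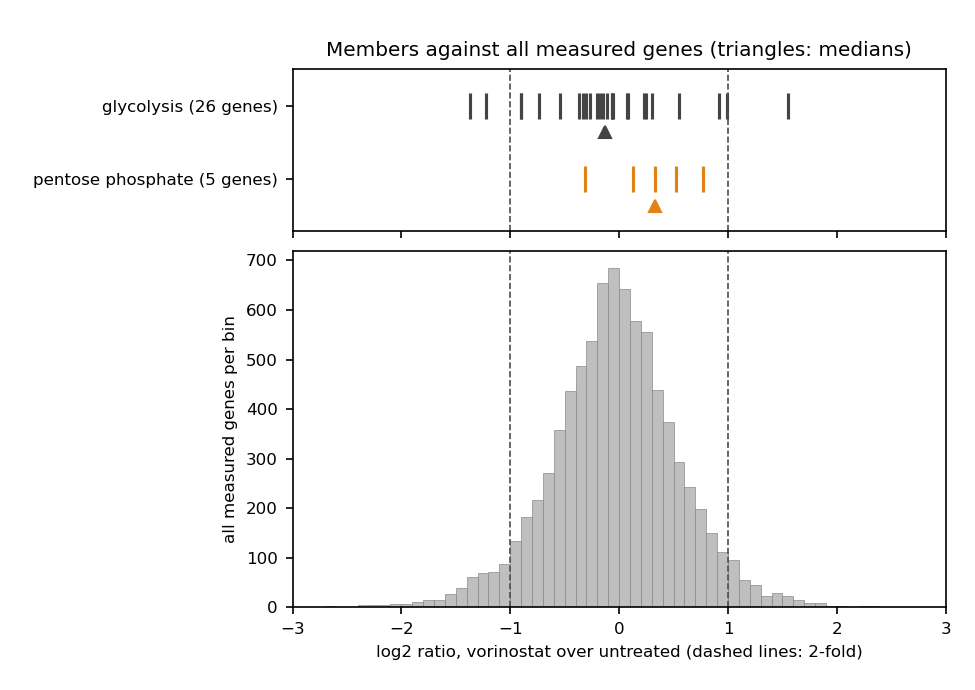
Log2 ratios of vorinostat over untreated for the 26 measured glycolysis genes and the 5 pentose phosphate genes (top, 1 tick per gene, triangles at the medians of -0.13 and 0.33), above the counts of all 8277 measured genes in bins of log2 ratio (bottom). The ticks spread over the same range as most genes of the array, with PFKFB3, PFKFB4 and GBE1 beyond the dashed 2-fold lines.

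Other genes of carbohydrate metabolism, 131 in 9 lists chosen for their role, were read beside the members. Of these, 109 had a probe set named here and 83 were measured, with a median log2 ratio of 0.08. In either direction 4.82% were at least 2-fold apart, against 8.89% of all measured genes, and 79 lay within 2-fold. At least 2-fold higher were 4 genes (against 3.77% of all measured genes), and 0 were lower (against 5.12%). This one-sided split was lost in settings that measure dimmer genes: 5 were higher and 3 lower with the 25th percentile as the floor, and 4 higher and 3 lower with an offset of 16 units in place of a floor. The highest poly-A control as the floor gave 5 higher and 1 lower, and the median over probe sets 4 higher and 1 lower. With the floor of 68.9 units, 17 were higher and 9 lower at 1.5-fold (31.3%, against 28.2% of all measured genes). The 4 genes at least 2-fold higher with this floor were MPC1, MINPP1, IDH1 and IDH3A. The carriers that feed the pathway had a median of 0.11 over 8 genes. SLC2A1, the glucose transporter of most dividing cells, had 678 units with vorinostat and 990 units untreated (1.46-fold lower). The brighter glucose transporter gene SLC2A3 was level, at 6470 units with vorinostat and 6071 units untreated (log2 ratio 0.09). Its brightest probe set has a shared-sequence suffix. MPC1, a subunit of the carrier that brings pyruvate into mitochondria, had 983 units with vorinostat and 403 units untreated (2.44-fold higher), and its partner MPC2 had 4146 units with vorinostat and 2433 units untreated (1.70-fold higher). The 2 carrier subunits thus lay on the same side as PDHA1 and PDHB.

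Among 19 measured genes of the tricarboxylic acid cycle and its neighbours, 2 were at least 2-fold higher, 0 lower and 17 within 2-fold, with a median log2 ratio of 0.36. The 2 genes are 10.5%, against 8.89% of all measured genes (3.77% higher and 5.12% lower). Of the 19, 7 had a ratio below 0. At 1.5-fold 5 were higher and 3 lower (42.1%, against 28.2% of all measured genes), and IDH3G, at -0.63, was among the lower ones. IDH3A, a subunit of the NAD-dependent isocitrate dehydrogenase, had 2320 units with vorinostat and 1044 units untreated (2.22-fold higher), and 1.96-fold on its second probe set. IDH1, the cytosolic NADP-dependent form, had 1291 units with vorinostat and 592 units untreated (2.18-fold higher), and the aconitase gene ACO1 was 1.98-fold higher. Of the other pyruvate dehydrogenase complex genes, 4 were measured and none was 2-fold apart: PDHX, which anchors a subunit, had a log2 ratio of -0.55, DLAT, the acetyltransferase subunit, 0.44, and PDHA2, the testis form, a bound of -0.46.

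The list of further enzymes around the glycolytic steps had a median of 0.19 over 9 measured genes, with 1 at least 2-fold higher. The gene past 2-fold, MINPP1, encodes a phosphatase of inositol phosphates that also acts on bisphosphoglycerate, and had 1074 units with vorinostat and 468 units untreated (2.29-fold higher). BPGM, which makes bisphosphoglycerate, was 1.81-fold higher and TIGAR, a phosphatase that opposes PFKFB3, 1.71-fold higher. In gluconeogenesis (3 measured, median 0.13) PCK2, the mitochondrial carboxykinase, had a log2 ratio of -0.88, FBP1 0.34 and G6PC3 0.13 with -0.51 on its other probe set. In the further pentose genes (6 measured, median 0.24) H6PD, the dehydrogenase of the endoplasmic reticulum, had -0.85, with -0.27 on its other probe set. PRPS2, which makes phosphoribosyl pyrophosphate, had 0.62. RBKS, the ribokinase, was under the floor untreated and at least 1.69-fold higher.

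Of the other glycogen genes 12 were measured and none was 2-fold apart (median 0.06). Beside GYS1, the kinase subunit PHKG2 had a log2 ratio of 0.68 and UGP2, which makes the sugar donor of glycogen, -0.55, so the lower signals of GBE1 and PGM1 were not shared by the list as a whole. The side branches had a median of -0.17 over 8 genes, with PSAT1 of serine synthesis at -0.93, the ketohexokinase KHK at 0.43 and PSPH at a bound of -0.37. In the hypoxia pathway 14 genes were measured, 0 were 2-fold apart and the median was -0.14. Of the 14, 5 had a ratio above 0 and 9 below. At 1.5-fold 3 were higher and 3 lower (42.9%, against 28.2% of all measured genes). P4HA1 of this list had 3293 units with vorinostat and 1969 units untreated (1.67-fold higher). HIF1A, the oxygen-regulated factor known to induce many glycolytic genes, had 4719 units with vorinostat and 2682 units untreated (1.76-fold higher). EGLN1, the hydroxylase that marks it for removal, had 701 units with vorinostat and 1341 units untreated (1.91-fold lower), and the target VEGFA was 1.88-fold lower on the brightest of its probe sets and between 1.91-fold and 2.90-fold lower on its other 3.

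**Figure D4:**
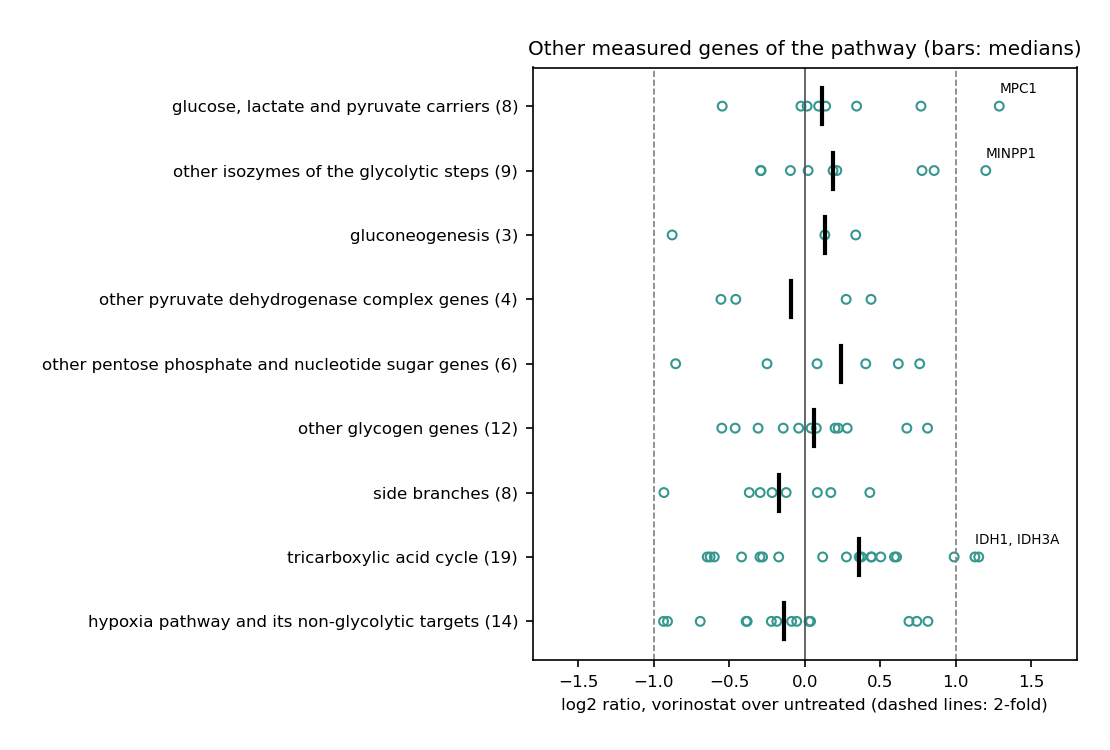
Log2 ratios of vorinostat over untreated for the 83 measured genes of the 9 further lists (1 circle per gene, number measured in brackets, black bars at the list medians). The 4 named genes lie beyond the dashed 2-fold line on the right and none lies beyond it on the left.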

How the data were processed

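Total RNA of the 2 samples was labelled with biotin and hybridised to 1 HG_U133A array per group (per the labels' protocols). The authors deposited 1 linear intensity for each probe set, and the submitters' processing notes name MAS5 as the tool. Its version, scaling target and detection calls are not given in the sources used here. Trimmed by 2% at both ends, the mean signals of the arrays were both 500.2, so the deposited scaling was kept.

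Of 22283 probe sets, 68 were controls. Symbols came from the platform's annotation, updated through Entrez identifiers and a RefSeq table of GRCh38.p14. Probe sets with several symbols (1043) or none (2107) were not used. The floor was the 40th percentile of pooled signals, and the brightest probe set (mean of log2 signals) stood for a gene. Ratios are vorinostat over untreated, on the log2 scale. No test was possible with 1 array per group, and 2-fold is a rule of size. All 32 members were named, and of the other genes those past 2-fold and up to 3 per list with the largest ratios. SLC2A3, DLD, IDH3G and P4HA1 were named beside them because they differed from a named gene of the same list. The members and lists were chosen with earlier results of these data known. Alternatives were 3 scalings (equal medians, quantile, loess with a span of 0.4), 3 floors, an offset of 16 units, the median over probe sets, leaving out shared-sequence probe sets, and thresholds of 1.5-fold and 3-fold. The calling steps were run on simulated data with changes well past 2-fold planted in bright genes only. Calls on dim genes or close to 2-fold were therefore not tested. Python 3.11.15, pandas 2.3.3 and statsmodels 0.14.6 were used.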

Additional observations from a re-analysis of the deposited data

How the results depend on the processing

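Of 31 measured members, 26 kept the sign of their log2 ratio in each of up to 9 alternatives, and HK2, GAPDH, LDHA, LDHB and PDK3 did not. PFKFB4 and GBE1 stayed past 2-fold in all 9, and PFKFB3 in the 8 that measured it. Raising the floor to the 60th percentile, which bounds its untreated signal, gave a log2 ratio of 1.16, and leaving out shared-sequence probe sets left it unmeasured. With equal medians PFKM had 1.05 and PDK2 1.12. The number of glycolysis genes at least 2-fold apart, 3 of 26 as reported (1 higher, 2 lower), was 5 with equal medians (3 higher, 2 lower), 8 at 1.5-fold and 0 at 3-fold. The pentose phosphate number, 0 of 5, was 1 at 1.5-fold. The number for other pathway genes, 4 of 83, came to 8 for a floor at the 25th percentile, 7 with the offset, 2 without shared-sequence probe sets, 26 at 1.5-fold and 0 at 3-fold. Among all measured genes 736 were 2-fold apart. This became 1148 and 468 with the floor at the 25th and 60th percentile, 1178 with the offset, 469 without shared-sequence probe sets, 2334 at 1.5-fold and 122 at 3-fold; these settings change the genes measured or the threshold. Of all calls 42.4% were higher, against 58.8% with equal medians. The median log2 ratio ranged from -0.20 to 0.00 for glycolysis and from 0.12 to 0.46 for the pentose phosphate branch. The values of -0.20 and 0.12 came from leaving out shared-sequence probe sets. That setting left only 14 glycolysis genes and 3 pentose phosphate genes measured, so these medians are over fewer genes. No paired analysis was possible because each group held 1 array, and dim members such as PFKP and PFKFB2 are limited by signal over background.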

Other observations

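Some probe sets of the members gave signals under the floor on both arrays and so entered no comparison. The third probe set of PDK3 had 63.4 units with vorinostat and 6.91 units untreated. The second probe set of PFKFB2 had 11.0 units with vorinostat and 48.9 units untreated. The probe set of PFKP had 29.9 units with vorinostat and 9.47 units untreated. The highest signal of the 27 poly-A control probe sets, which match no transcript of the cells, was 43.1 units.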
